A study of Mus musculus with 18 samples.

Results

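CARM1 (also called PRMT4) is an arginine methyltransferase that acts as a transcriptional coactivator, and the 9 genes described here encode proteins around its reaction. Of these, 7 (Ep300, Crebbp, Ncoa3, Kmt2d, Med12, Smarcc1 and Pabpc1) encode known CARM1 substrates. Tdrd3 encodes a reader of methylated arginine, and Trim29 encodes a protein that the study tested as a partner of methylated NFIB. The genes were chosen by their known roles, with earlier results of these data known, and they are 9 of the 46078 genes counted by RNA-seq. Their open chromatin was taken as every ATAC-seq peak from 5000 bp upstream of the gene to its end, which gave 45 of 111664 peaks.

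The libraries came from a mouse model of small cell lung cancer. All mice carried conditional alleles of Rb1 and p53 and of a further retinoblastoma family gene, which the labels give as Rbl1 (strain Rb1L/L; Rbl1L/L; p53L/L) and other passages of the study as Rbl2. Adenovirus carrying Cre was delivered to the lungs at 8 weeks of age, and cells were collected 28 weeks later. Mice with these alleles alone are called TKO. Mice labelled TKO;Carm1 also carried a conditional Carm1 allele (CARM1 knockout), and mice labelled TKO;NfibR388K carried an NFIB protein in which the arginine methylated by CARM1 was replaced by lysine (NFIB mutant). There were 3 libraries of each genotype for each assay, from 3 animals per genotype. The Methods describe cells sorted for a tdTomato reporter that Cre switches on, whereas other passages name tumor biopsies or cell lines, and which of these the libraries came from is not settled here. The tables head their columns C, KO and N, which were read as TKO, CARM1 knockout and NFIB mutant.

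CARM1 places asymmetric dimethylarginine on histone H3 and on many other proteins. It is brought to promoters by the p160 coactivators, of which NCOA3 is a member, together with the acetyltransferases EP300 and CREBBP. Methylation of coactivators and of chromatin or RNA-binding proteins changes which proteins they bind, and Tudor domain proteins such as TDRD3 are the classic readers of the mark. NFIB is a transcription factor of the nuclear factor I family that opens chromatin in small cell lung cancer. The counts measure RNA and open chromatin only, and none of the methylation of these proteins.

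RNA-seq libraries held 15848866 to 20915057 counts in genes, and ATAC-seq libraries 26917178 to 47653979 counts in peaks. Levels are given in CPM, counts per 1000000 counts of the library, scaled by edgeR's TMM factors. The limit of detection was taken as 3 counts, which were 0.143 to 0.189 per 1000000 counts for RNA-seq and 0.0630 to 0.111 for ATAC-seq. These limits use the library totals without the TMM factors, so their scale differs somewhat from that of the CPM values. Such limits cover counting error only. Carm1 was at 44.5 to 103 CPM in TKO and 50.7 to 79.0 CPM in CARM1 knockout libraries (log2 fold change -0.34 ± 0.31, SE; adjusted p = 0.410) by edgeR's quasi-likelihood test, and counts over the whole gene do not show whether the floxed exons were lost. Nfib fell in both mutants, by 2.06 and 2.49 on the log2 scale. Over 10 neuroendocrine markers, the summed level was 1620 to 4181 CPM in TKO, 59.2 to 1974 in CARM1 knockout and 33.5 to 51.1 CPM in NFIB mutant libraries, with 1 of the 10 called lower in the CARM1 knockout and 9 in the NFIB mutant. CARM1 knockout replicate 3 stood apart with the 1974 CPM, the other 2 being at 59.2 and 189 CPM. Over 7 fibroblast markers the sum was 16.5 to 66.1, 14865 to 26676 and 10095 to 16077 CPM (7 and 6 called higher). Over 7 leukocyte markers it was 2.58 to 14.7, 38.3 to 702 and 25.8 to 429 CPM (5 and 2 called higher; Cd3e was at 0 in every library). Over 7 lung epithelial markers it was 268 to 629, 2.57 to 875 and 2.73 to 1064 CPM (0 and 3 called higher), and over 5 endothelial markers 5.85 to 21.2, 4.02 to 73.8 and 1.82 to 12.2 CPM. These sums differed over the same libraries in which the members are compared, and their part in the members' differences was not tested. In bulk libraries, fewer cells of a type and less RNA per cell cannot be told apart.

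A gene was called at an adjusted p under 0.1 (edgeR's quasi-likelihood test, adjusted by Benjamini-Hochberg over every gene tested) and a log2 fold change of 0.8 or more in either direction, and a peak at the same adjusted p and 0.5 or more. Of the 9 genes, 4 were called in the CARM1 knockout against TKO: Pabpc1 and Trim29 were higher and Crebbp and Tdrd3 lower. Over all 15514 genes tested, 38.8% were called in that comparison (20.5% higher and 18.3% lower). In the NFIB mutant 3 of the 9 were called: Pabpc1 was higher and Smarcc1 and Tdrd3 lower, beside 45.8% of all genes (22.3% higher and 23.5% lower). The 9 genes had median log2 fold changes of -0.23 and 0.00, against -0.03 and -0.05 over all genes. In 4 of the 9, Crebbp, Kmt2d, Pabpc1 and Tdrd3, all 6 mutant libraries lay on one side of all 3 TKO libraries, as did 45.5% of all genes. Scaled by totals alone, the median of all genes moved by -0.27 and -0.32, and the share of rises among all calls from 52.9% and 48.7% to 39.5% and 35.9%, with 2 members called higher and 3 lower in the CARM1 knockout and 1 and 4 in the NFIB mutant. With 9 genes the counts of members were near the shares over all genes, and nothing particular to the set is read from them. The mutants share their TKO libraries, so the 2 comparisons are not independent. Without CARM1 knockout replicate 3, 3 of the 9 were called in that mutant: Crebbp (-0.85), Pabpc1 (1.30) and Trim29 (4.35). Without TKO replicate 2, Pabpc1 was the single one left in the CARM1 knockout. An exact permutation test of 3 libraries against 3 cannot give a two-sided p below 0.10 for 1 gene, so the p-values come from the model across all genes.

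**Figure D1:**
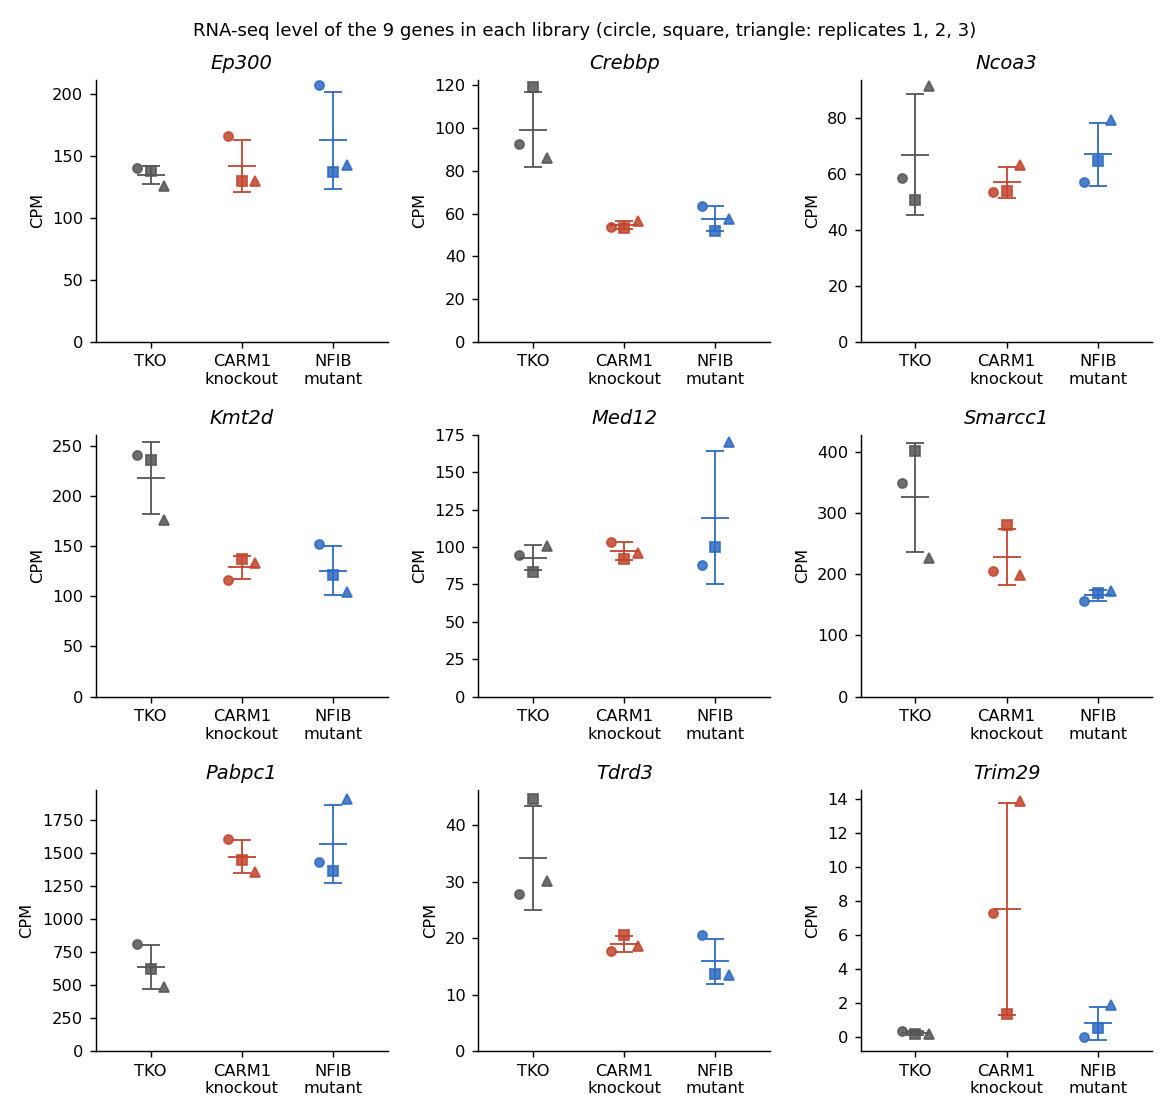
RNA-seq level in CPM (vertical axes, from 0) of the 9 genes in the 3 libraries of each genotype; points are libraries, and bars the mean ± SD. Pabpc1 lies above the TKO libraries in all 6 mutant libraries, and Crebbp, Kmt2d and Tdrd3 lie below them.

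None of the 9 genes was called in the CARM1 knockout against the NFIB mutant, beside 0.0% of all genes. Trim29 was the 1 member that had an unadjusted p under 0.05 there, as did 1415 of all genes. DESeq2 called 0 of the 9, and 317 genes higher and 223 lower over the whole table. A missing call does not show that the mutants were equal. Over all genes, the median absolute log2 fold change was 0.32 between the mutants and 0.92 and 1.02 for each mutant against TKO.

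Ep300 (ENSMUSG00000055024, chromosome 15, 81585351 to 81652077, plus strand, GRCm38) and Crebbp (ENSMUSG00000022521, chromosome 16, 4081328 to 4213997, minus strand) encode the paralogous acetyltransferases that work with CARM1 at enhancers and promoters. Ep300 was at 140, 138 and 126 CPM in TKO, 166, 130 and 130 in CARM1 knockout and 207, 138 and 143 in NFIB mutant libraries. Its genotypes overlapped, with log2 fold changes of 0.07 ± 0.20 (adjusted p = 0.786) and 0.27 ± 0.20 (adjusted p = 0.289). Crebbp was at 92.7, 119 and 86.1 CPM in TKO, 53.7, 53.2 and 56.5 in CARM1 knockout and 63.4, 51.7 and 57.6 in NFIB mutant libraries. All 6 mutant libraries were thus below the lowest TKO library, at means of 54.5 ± 1.80 and 57.6 ± 5.86 CPM (SD, n = 3) against 99.4 ± 17.6 CPM. The log2 fold change was -0.87 ± 0.17 (adjusted p = 0.00703) in the CARM1 knockout, which was called, and -0.79 ± 0.17 (adjusted p = 0.00801) in the NFIB mutant, just short of the fold threshold. The first call was lost without TKO replicate 2 (-0.71), and the NFIB mutant was called without TKO replicate 1 (-0.83), TKO replicate 3 (-0.85) or NFIB mutant replicate 1 (-0.85). With all libraries, Crebbp was called in the NFIB mutant with median-of-ratios scaling (-0.80), totals alone (-1.10) or a minimum of 10 counts in every library (-0.85). The 2 paralogs therefore stood on different sides of the threshold in the CARM1 knockout, but the difference between them was not tested.

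Of the 7 further p160 and acetyltransferase genes and their CITED partners, 0 rose and 1 fell in the CARM1 knockout, and 1 rose and 3 fell in the NFIB mutant, with medians of -0.39 and -0.54. The gene lower in both mutants was Ncoa1, a p160 coactivator like Ncoa3. It was at 84.9, 94.7 and 105 CPM in TKO, 27.2, 27.0 and 45.2 in CARM1 knockout and 16, 17.5 and 16.9 in NFIB mutant libraries. Ncoa3 (ENSMUSG00000027678, chromosome 2, 165992636 to 166073242, plus strand) itself was at 58.4, 50.6 and 91.4 CPM in TKO, 53.6, 53.9 and 63.3 in CARM1 knockout and 57.2, 64.6 and 79.1 in NFIB mutant libraries. Its range in TKO covered all 6 mutant libraries, and the log2 fold changes were -0.23 ± 0.24 (adjusted p = 0.482) and 0.00 ± 0.24 (adjusted p = 0.991).

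Kmt2d (ENSMUSG00000048154, chromosome 15, 98831669 to 98871204, minus strand) encodes the methyltransferase that places monomethyl H3K4 at enhancers. It was at 241, 237 and 177 CPM in TKO, 116, 138 and 133 in CARM1 knockout and 152, 121 and 104 in NFIB mutant libraries, so all 6 mutant libraries lay below TKO. The log2 fold changes, -0.76 ± 0.19 (adjusted p = 0.0205) and -0.79 ± 0.20 (adjusted p = 0.0143), passed the test but fell short of the fold threshold in both mutants. Leaving out TKO replicate 3 gave calls in both (-0.85 and -0.90), as did CARM1 knockout replicate 2 in the first (-0.80) and NFIB mutant replicate 1 in the second (-0.94). Totals alone also gave calls in both (-1.02 and -1.11). In the NFIB mutant, Kmt2d was called as well by DESeq2 (-0.81), with median-of-ratios scaling (-0.81) and at a minimum of 10 counts in every library (-0.85). Of 9 other genes, its paralog Kmt2c and subunits of its complex, 8 were tested. None of these was called higher and 3 were called lower in each mutant, with medians of -0.49 and -0.60. The 3 were the same in both: Kmt2c, the paralog of Kmt2d (-1.25 and -1.57), Ncoa6, a coactivator subunit (-1.13 and -1.21), and Kdm6a, the H3K27 demethylase of the complex (-0.85 and -1.22). Kmt2c went from 123 to 146 CPM in TKO to 44.0 to 72.5 and 30.0 to 53.7 CPM in the mutants.

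Med12 (ENSMUSG00000079487, chromosome X, 101274030 to 101297465, plus strand) encodes the Mediator subunit that activates the kinase of its kinase module. It was at 94.6, 83.5 and 100 CPM in TKO, 103, 91.7 and 96.3 in CARM1 knockout and 87.9, 100 and 170 in NFIB mutant libraries. The genotypes overlapped (0.06 ± 0.25, adjusted p = 0.854, and 0.36 ± 0.25, adjusted p = 0.257), and 1 library, NFIB mutant replicate 3, stood above the rest. Of the 6 other genes of the kinase module, 1 rose and 2 fell in each mutant, with medians of -0.24 and -0.42. Med13l, one of the paired MED13 subunits, rose from 42.7 to 71.9 CPM in TKO to 106 to 170 and 96.5 to 149 CPM. Med12l, the paralog of Med12, fell from 23.0 to 35.1 CPM to 1.08 to 5.95 and 0.127 to 2.89 CPM, and Cdk19, a kinase of the module, from 106 to 171 CPM to 31.8 to 40.1 and 34.8 to 59.4 CPM.

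Smarcc1 (ENSMUSG00000032481, chromosome 9, 110117708 to 110240178, plus strand) encodes the BAF155 core subunit of the SWI/SNF remodelers. It was at 350, 402 and 227 CPM in TKO, 205, 281 and 198 in CARM1 knockout and 156, 170 and 172 in NFIB mutant libraries. All 3 NFIB mutant libraries lay below TKO, whereas the CARM1 knockout overlapped it. The log2 fold change was -0.98 ± 0.24 (adjusted p = 0.0143) in the NFIB mutant, which was called, and -0.52 ± 0.24 (adjusted p = 0.122) in the CARM1 knockout, and the mutants were not called apart from each other. Of 12 other SWI/SNF genes, 0 rose in either mutant, 2 fell in the CARM1 knockout and 3 in the NFIB mutant, with medians of -0.39 and -0.50. Smarcd1 (-1.72 and -1.47) and Arid2 (-1.39 and -1.45) fell in both. Arid2, the ARID subunit of the PBAF form, went from 177 to 217 CPM to 71.7 to 82.8 and 56.8 to 96.3 CPM.

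Pabpc1 (ENSMUSG00000022283, chromosome 15, 36595661 to 36609668, minus strand) encodes the cytoplasmic poly(A)-binding protein that joins mRNA tails to the translation machinery. It was the one member that rose in both mutants. It was at 815, 620 and 485 CPM in TKO, 1604, 1446 and 1358 in CARM1 knockout and 1431, 1363 and 1907 in NFIB mutant libraries. The lowest mutant library was above the highest TKO library, at means of 1469 ± 124 and 1567 ± 297 CPM (SD, n = 3) against 640 ± 166 CPM. The log2 fold changes were 1.20 ± 0.25 (adjusted p = 0.0096) and 1.29 ± 0.25 (adjusted p = 0.00587), and every alternative setting and every omission of a library kept both calls. Pabpc1 has processed copies elsewhere in the genome. In counting, reads that did not align uniquely were set apart from the genes, so reads shared with these copies may be missing from the Pabpc1 counts. How many were missing was not measured. Of 7 other genes of poly(A) binding and translation initiation, 2 rose and 1 fell in the CARM1 knockout, and 0 rose and 1 fell in the NFIB mutant, with medians of -0.08 and -0.27. The fall in both was Pabpn1, the nuclear poly(A)-binding protein, from 27.3 to 44.9 CPM to 15.1 to 19.7 and 15.1 to 19.0 CPM. The genes whose log2 CPM followed Pabpc1 most closely over the 9 libraries were Mapk13 (Pearson r = 0.994), S100a11 (0.990) and Mxra8 (0.989), a description over libraries that share their genotypes.

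Tdrd3 (ENSMUSG00000022019, chromosome 14, 87416639 to 87545504, plus strand), the Tudor domain reader that recruits the topoisomerase TOP3B, fell in both mutants. It was at 27.8, 44.6 and 30.1 CPM in TKO, 17.8, 20.6 and 18.6 in CARM1 knockout and 20.5, 13.7 and 13.6 in NFIB mutant libraries. No mutant library reached the lowest TKO library. The log2 fold changes were -0.85 ± 0.26 (adjusted p = 0.0393) and -1.10 ± 0.27 (adjusted p = 0.0134). The first call was near the fold threshold and was lost without TKO replicate 2 (-0.61), CARM1 knockout replicate 1 (-0.79) or CARM1 knockout replicate 3 (-0.79). The call in the NFIB mutant was made under every setting. Of 8 tested genes among the other 9 methylarginine readers and TDRD3 partners, 1 rose in each mutant, 1 fell in the CARM1 knockout and 2 fell in the NFIB mutant, with medians of 0.16 and 0.17. Snd1, a Tudor domain nuclease that reads symmetric dimethylarginine, rose from 137 to 237 CPM to 300 to 460 and 313 to 506 CPM. Fxr1, an RNA-binding paralog of the fragile X protein, fell from 142 to 194 CPM to 71.9 to 94.6 and 75.6 to 91.5 CPM. The genes most like Tdrd3 were Kbtbd2 (r = 0.985), Zkscan8 (0.982) and Eif4a2 (0.979).

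Trim29 (ENSMUSG00000032013, chromosome 9, 43310848 to 43336115, plus strand) encodes a tripartite motif protein without a RING domain, known from basal and squamous epithelia. Its RNA was scarce in TKO, with 7, 4 and 3 counts (0.336, 0.175 and 0.133 CPM). CARM1 knockout libraries held 108, 23 and 247 counts (7.31, 1.34 and 13.9 CPM), all above TKO. NFIB mutant libraries held 0, 8 and 29 counts (0, 0.492 and 1.84 CPM) and overlapped TKO, the 0 allowing a level up to the 3-count limit given above. The log2 fold change was 5.09 ± 1.54 (adjusted p = 0.0359) in the CARM1 knockout and 1.83 ± 1.38 (adjusted p = 0.307) in the NFIB mutant. The difference between the mutants, 3.26 ± 1.40, was not called (adjusted p = 0.546), so it is not shown that Trim29 differed between them. The call in the CARM1 knockout was lost without TKO replicate 2 (4.96, adjusted p = 0.109), and the gene could not be tested at a minimum of 10 counts in every library. Without NFIB mutant replicate 3, the NFIB mutant value was 0.20 and the difference between the mutants 4.89 (adjusted p = 0.692), and neither was called. Trim29 was lowest of its genotype in CARM1 knockout replicate 2 and NFIB mutant replicate 1. In replicate order, the leukocyte marker sum was 275, 38.3 and 702 CPM in CARM1 knockout and 31.1, 429 and 25.8 CPM in NFIB mutant libraries. The lung epithelial sum was 2.57, 56.4 and 875 CPM in CARM1 knockout and 1064, 174 and 2.73 CPM in NFIB mutant libraries. The leukocyte sum had the same order of libraries as Trim29 in the CARM1 knockout, but not in the NFIB mutant. The lung epithelial sum had a different order from Trim29 in each mutant. The part of either sum in the Trim29 level was not tested.

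Of 9 related TRIM and basal epithelial genes, 5 could be tested, and 2 rose and 1 fell in each mutant, with medians of 0.38 and 0.31. Trim16, a TRIM protein without a RING domain like TRIM29, rose from 0.0442 to 1.06 CPM in TKO to 19.3 to 23.1 and 12.3 to 51.4 CPM. Trim25, an E3 ligase, rose from 16.9 to 69.6 CPM to 101 to 146 and 78.1 to 188 CPM, and Trim33, a regulator of TGF-beta signalling, fell from 99.9 to 117 CPM to 40.9 to 52.6 and 30.8 to 51.2 CPM. Of the basal keratin genes, Krt14 was at 0 in every library of all 3 genotypes. Krt15 was at 0 in every TKO and CARM1 knockout library, but not in all NFIB mutant libraries. Krt5 was at 0 in every mutant library, but not in all TKO libraries. Among 9 further candidate partners of TRIM29 and NFIB that the study named, such as Ruvbl1 and Hat1, 0 were called in the CARM1 knockout and 1 in the NFIB mutant (higher), with medians of 0.04 and 0.05. Of 17 other CARM1 substrates, 16 were tested, of which 3 rose and 3 fell in the CARM1 knockout and 5 rose and 5 fell in the NFIB mutant, with medians of -0.09 and -0.08. Runx1, a hematopoietic and mesenchymal transcription factor, rose from 2.61 to 9.50 CPM to 82.2 to 106 and 44.2 to 85.9 CPM, and the glycolytic genes Pkm (1.24 and 1.62) and Gapdh (0.93 and 1.30) rose as well. Elavl4, a neuronal RNA-binding protein, fell from 126 to 231 CPM to 0.0582 to 6.90 and 0 to 0.789 CPM, followed by Kmt2c and by Kdm1a, an H3K4 demethylase (-0.96 and -1.26). None of the 9 lists held a gene called between the mutants, and no share was tested against the other genes.

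**Figure D2:**
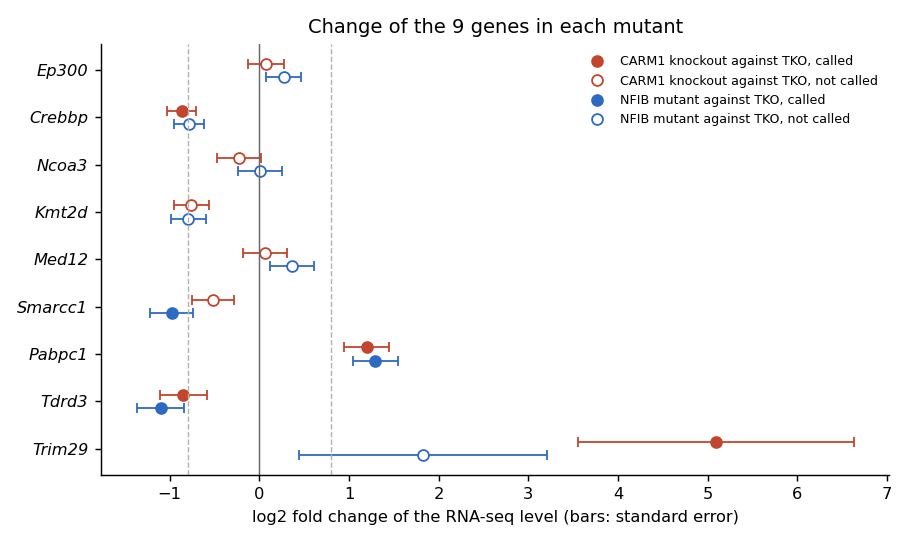
Log2 fold change of the RNA-seq level (horizontal axis, bars ± SE) of each of the 9 genes in CARM1 knockout and NFIB mutant libraries against TKO; filled points were called, and dashed lines mark the fold threshold. Pabpc1 and Trim29 lie to the right, Crebbp, Kmt2d, Smarcc1 and Tdrd3 to the left, and Ep300, Ncoa3 and Med12 near 0 with bars that reach or come near it.

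The 9 genes spanned a wide range of RNA per kilobase of exon in TKO. Mean levels were 97.9 CPM per kb for Pabpc1, 41.7 for Smarcc1, 12.1 for Med12, 10.9 for Kmt2d, 9.45 for Ep300, 8.46 for Ncoa3, 7.34 for Crebbp and 5.63 for Tdrd3. Trim29, at 0.0617 CPM per kb, was far below the rest. The TKO libraries of Pabpc1, of Smarcc1 and of Trim29 did not overlap those of any other member, at 74.2 to 125, 29.0 to 51.3 and 0.0382 to 0.0967 CPM per kb. From Med12 to Tdrd3 each neighbouring pair in the order overlapped. This is a description of levels, and the order was not tested.

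Open chromatin at the 9 genes was counted over 45 peaks, all of which were tested: 14 at Ncoa3, 6 at Trim29, 5 each at Smarcc1 and Tdrd3, 4 each at Crebbp and Kmt2d, 3 each at Ep300 and Pabpc1 and 1 at Med12. Of these, 13 were within 1000 bp of an annotated transcript start, 6 in exons, 25 in introns and 1 between genes. In the CARM1 knockout 28 of the 45 were called, 15 higher and 13 lower, beside 71.1% of all 111116 peaks tested (38.7% higher and 32.4% lower). In the NFIB mutant 26 were called, 15 higher and 11 lower, beside 73.3% of all peaks (39.3% higher and 34.0% lower). In 24 of the 45 peaks all mutant libraries lay apart from all TKO libraries, beside 61.7% of all peaks. The members' shares were thus below those over all peaks, and the difference was not tested. The members' peaks had median absolute changes of 1.13 and 1.33 on the log2 scale, against 2.02 and 2.11 over all peaks. Without CARM1 knockout replicate 3, 25 peaks were called in that mutant, 13 higher and 12 lower. Between the mutants 0 of the 45 were called, 0 had an unadjusted p under 0.05 and DESeq2 called 0, whereas over all peaks 0.0% were called, 6814 had an unadjusted p under 0.05 and DESeq2 called 523 higher and 537 lower.

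Peaks at the gene starts had smaller fold changes than the others, a difference that was not tested. The 8 peaks nearest the annotated gene starts (Trim29 had none within 1000 bp) had median absolute log2 fold changes of 0.39 and 0.35, and the other 37 had 1.63 and 1.65. Of the 8, 3 were called in the CARM1 knockout and 2 in the NFIB mutant, all lower with TMM scaling, and of the 37, 25 and 24 were called. Of the 13 member peaks at any annotated promoter, which include 7 of the 8, 8 and 7 were called, beside 55.0% and 59.8% of all promoter peaks. Of the other 32, 20 and 19 were called, beside 75.1% and 76.6% of all peaks away from promoters. With TMM scaling, Smarcc1 had 5 of 5 peaks called in both mutants, Ncoa3 7 of 14, Trim29 4 of 6, Crebbp 3 of 4 and Pabpc1 2 of 3. Med12 had 1 of 1, Ep300 1 of 3, Tdrd3 1 of 5 and Kmt2d 0 of 4. Over all 111116 peaks tested, 38887 were called higher and 34174 lower in both mutants, and no gene's count was tested against these.

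**Figure D3:**
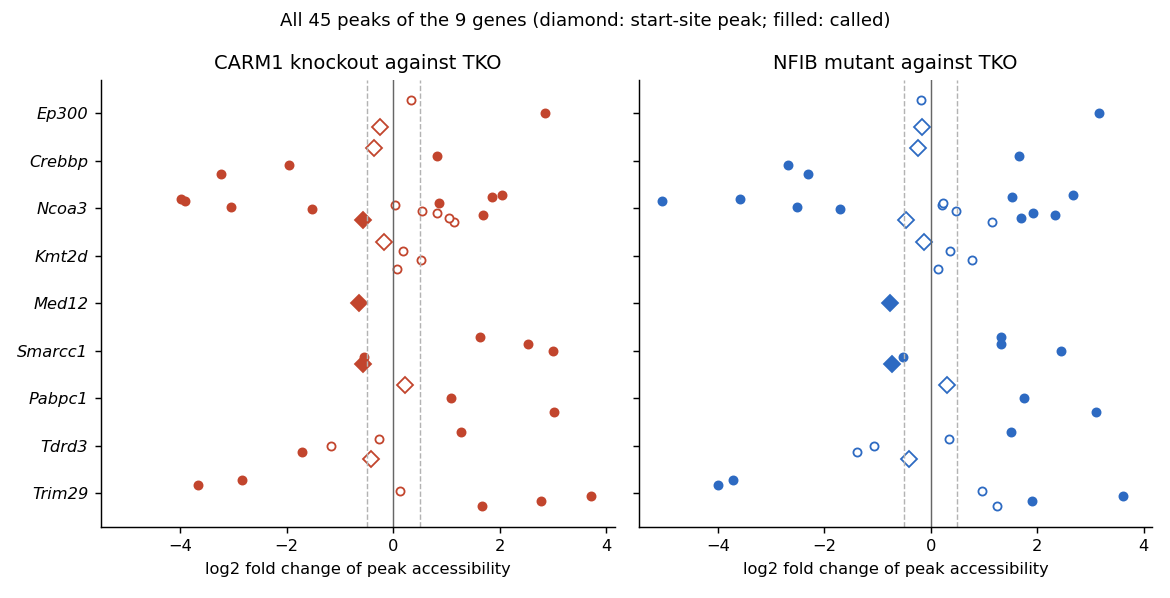
Log2 fold change of accessibility (horizontal axes) of all 45 peaks, by gene, in the CARM1 knockout (left) and the NFIB mutant (right) against TKO; diamonds are start-site peaks, and filled points were called with TMM scaling. Diamonds lie between -0.77 and 0.31, and the other peaks spread from -5.05 to 3.73.

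Directions at the start-site peaks depended on the scaling of the libraries. With TMM scaling the Med12 start-site peak (chromosome X, 101273402 to 101274887) was at 22.6, 20.3 and 19.8 CPM in TKO, 13.7, 13.2 and 13.1 in CARM1 knockout and 9.95, 12.7 and 14.1 in NFIB mutant libraries. It was called lower in both (-0.65, adjusted p = 0.0180, and -0.77, adjusted p = 0.00750), but not with libraries scaled by their totals alone (-0.07 and -0.19) or by 834 start-site peaks of genes with stable RNA (-0.24 and -0.31). The Smarcc1 start-site peak (chromosome 9, 110116427 to 110118483), which is nearer the start of the neighbouring gene Dhx30, was at 51.3, 60.2 and 54.1 CPM in TKO, 34.6, 38.2 and 39.2 in CARM1 knockout and 25.7, 39.9 and 33.8 in NFIB mutant libraries. It was likewise called lower with TMM (-0.56 and -0.74), and not with totals (0.02 and -0.16) or stable genes (-0.16 and -0.28). The Ncoa3 start-site peak, at 27.2 to 37.0 CPM in TKO, was called lower with TMM in the CARM1 knockout (-0.56, at 19.5 to 21.6 CPM) and short of the fold threshold in the NFIB mutant (-0.47, at 20.0 to 25.5 CPM), with values of 0.00 and 0.07 by totals and -0.16 and -0.01 by stable genes. The calls in the CARM1 knockout were lost without TKO replicate 3 for Ncoa3 (-0.39) and without TKO replicate 2 for Smarcc1 (-0.50, adjusted p = 0.0517). The NFIB mutant was called for Ncoa3 without TKO replicate 1 (-0.54), TKO replicate 2 (-0.55) or NFIB mutant replicate 2 (-0.59). Scaling by totals or by stable genes moved the median of all peaks by 0.57 and 0.57 or by 0.40 and 0.48 from its TMM value of 0.22 in each mutant, which changed the share of rises among all calls from 54.4% and 53.6% to 65.9% and 64.3% or 62.7% and 62.9%. The members' split of 15 higher and 13 lower in the CARM1 knockout became 23 and 7 by totals and 20 and 7 by stable genes. In the NFIB mutant, 15 and 11 became 25 and 8 or 23 and 8.

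The Pabpc1 start-site peak (chromosome 15, 36607656 to 36610238) was at 43.8, 27.7 and 52.5 CPM in TKO, 49.0, 47.1 and 49.6 in CARM1 knockout and 51.6, 52.8 and 48.9 in NFIB mutant libraries. The genotypes overlapped, and its log2 fold changes of 0.23 and 0.31 were not called with TMM. Scaled by totals (0.77 and 0.84) or by stable genes (0.63 and 0.78) it was the one start-site peak called higher. Without TKO replicate 3 it was called in the NFIB mutant with TMM as well (0.52). The start-site peaks of Ep300 (-0.24 and -0.17), Crebbp (-0.35 and -0.24), Kmt2d (-0.18 and -0.12) and Tdrd3 (-0.42 and -0.40) were not called under any of the 3 scalings, and all 4 turned positive with totals. With TMM, Tdrd3 was called lower in the CARM1 knockout without TKO replicate 1 (-0.53), TKO replicate 3 (-0.51) or CARM1 knockout replicate 2 (-0.57), and in the NFIB mutant without TKO replicate 1 (-0.51) or NFIB mutant replicate 2 (-0.57).

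**Figure D4:**
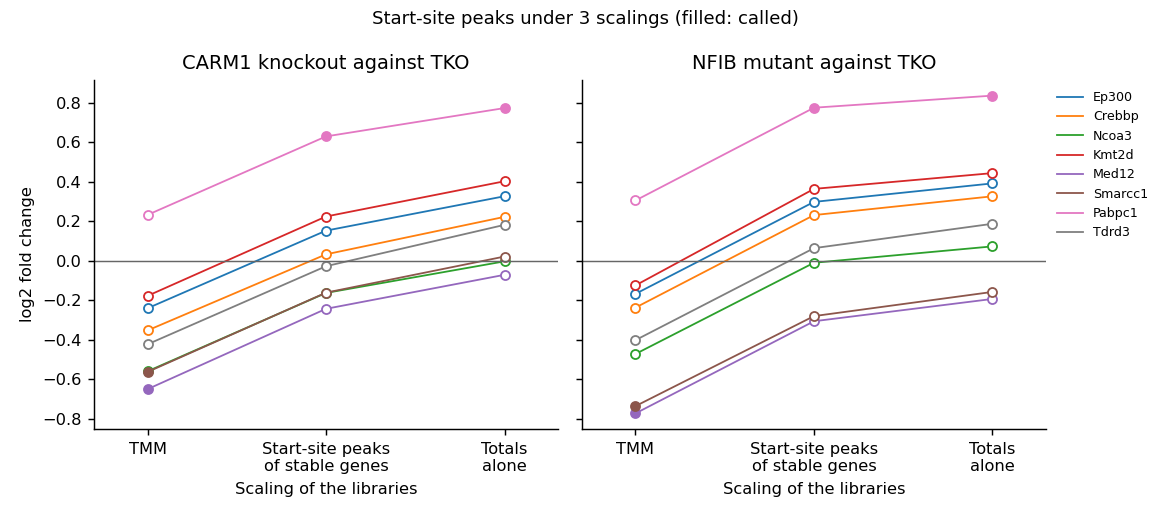
Log2 fold change (vertical axes) of the 8 start-site peaks in the CARM1 knockout (left) and the NFIB mutant (right) under 3 scalings of the libraries; filled points were called. Med12, Smarcc1 and Ncoa3 are called lower with TMM only (Ncoa3 in the CARM1 knockout only), and Pabpc1 is called higher with the other scalings only.

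Promoter sequence was available for 6 of the 9 genes (RefSeq, GRCm38.p6, 250 bases before to 50 after a start), all but Ncoa3, Pabpc1 and Trim29. The 6 promoters were rich in G and C (median 69.3% against 52.7% over 32851 promoters) and in CpG (median 31.5 against 7). None held the 6-letter nuclear factor I core TTGGCA on either strand, which 4640 of all promoters (14.1%) did, and none held the full palindrome (TTGGC, 5 bases of any kind and the reverse complement of TTGGC), which 12 of all promoters did (0.0365%). An absent match says only that these letters are not in the window. The Crebbp promoter, the richest in GC of the 6 (82.0%, 49 CpG), and that of Med12 (66.3%, 27 CpG), whose start-site peak had the largest fall with TMM, are shown for contrast, in lower case because no TTGGCA is present.
Crebbp chr16:4213355-4213654, minus strand: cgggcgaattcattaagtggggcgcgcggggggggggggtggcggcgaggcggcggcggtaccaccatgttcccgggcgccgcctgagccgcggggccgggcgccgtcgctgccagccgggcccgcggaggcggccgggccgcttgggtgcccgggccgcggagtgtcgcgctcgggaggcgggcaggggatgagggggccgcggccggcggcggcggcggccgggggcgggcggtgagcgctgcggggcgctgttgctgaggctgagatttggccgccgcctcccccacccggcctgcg
Med12 chrX:101273841-101274140, plus strand: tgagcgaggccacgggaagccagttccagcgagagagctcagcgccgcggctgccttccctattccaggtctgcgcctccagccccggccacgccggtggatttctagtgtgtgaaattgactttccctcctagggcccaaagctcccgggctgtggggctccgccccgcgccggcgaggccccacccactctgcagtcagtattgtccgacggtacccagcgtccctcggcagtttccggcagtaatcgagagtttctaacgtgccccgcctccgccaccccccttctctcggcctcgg
In the 300 bp around the middle of each peak, TTGGCA was present on either strand in 6 of the 45 member peaks (13.3%) and in 23822 of all peaks (21.3%), and the palindrome in 0 of the 45 and 112 of all peaks (0.10%). It was in 2 of the 13 member peaks that were higher in both mutants, 2 of the 11 lower in both and 2 of the other 21. Over all peaks it was in 19.2% of those higher in both mutants and in 27.2% of those lower in both.

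Away from the starts, the intronic Crebbp peak at 53004 bp was named for the largest fall and the intronic Smarcc1 peak at 44897 bp for the largest rise. The choice was among peaks of each gene called in both mutants with at least 3 log2 CPM in the higher genotype. That they changed more than the start-site peaks follows from this choice. The calls of these named peaks held under all 3 scalings. An intronic Crebbp peak 53004 bp from the gene start (chromosome 16, 4160575 to 4161411) was at 16.8, 16 and 6.55 CPM in TKO, 2.66, 4.15 and 3.26 in CARM1 knockout and 1.79, 1.92 and 2.37 in NFIB mutant libraries. All mutant libraries were below TKO (-1.97 ± 0.42, adjusted p = 0.00250, and -2.69 ± 0.44, adjusted p = 0.000498), as was the RNA of Crebbp. The other Crebbp peaks away from the start were weaker and moved in opposite directions. An intronic peak (chromosome 16, 4199703 to 4200348) was called higher in both mutants (0.82 and 1.65). An exonic peak (chromosome 16, 4117172 to 4117597) was called lower in both (-3.23 and -2.32). An intronic Smarcc1 peak 44897 bp from the gene start (chromosome 9, 110162056 to 110163154) was higher in both mutants. It was at 0.605, 0.309 and 2.53 CPM in TKO, 9.30, 12.7 and 5.12 in CARM1 knockout and 4.75, 4.59 and 9.28 in NFIB mutant libraries (3.0 ± 0.73, adjusted p = 0.00458, and 2.45 ± 0.71, adjusted p = 0.0108), while the RNA of Smarcc1 was lower in NFIB mutant libraries. The middle 300 bases of the Crebbp peak at 53004 bp and of the Smarcc1 peak at 44897 bp hold 1 TTGGCA each, set in capitals. They stand here (GRCm38.p6, plus strand) because these were the peaks named for the fall at Crebbp and the rise at Smarcc1.
Crebbp chr16:4160844-4161143: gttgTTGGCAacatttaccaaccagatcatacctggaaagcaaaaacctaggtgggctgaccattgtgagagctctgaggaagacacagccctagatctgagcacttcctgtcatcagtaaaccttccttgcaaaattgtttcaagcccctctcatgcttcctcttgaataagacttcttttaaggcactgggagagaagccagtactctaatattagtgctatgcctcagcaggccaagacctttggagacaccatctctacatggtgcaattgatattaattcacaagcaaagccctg
Smarcc1 chr9:110162456-110162755: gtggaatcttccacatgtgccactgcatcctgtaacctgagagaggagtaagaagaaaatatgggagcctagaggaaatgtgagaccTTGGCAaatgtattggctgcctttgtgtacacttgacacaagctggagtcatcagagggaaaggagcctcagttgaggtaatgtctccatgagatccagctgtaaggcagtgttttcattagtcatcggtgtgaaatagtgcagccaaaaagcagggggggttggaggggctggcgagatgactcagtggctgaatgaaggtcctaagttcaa
A further Smarcc1 peak 14087 bp from the gene start, which covers the start of the gene in RefSeq, was at 36.5 to 37.5 CPM in TKO, 24.0 to 27.2 in CARM1 knockout and 20.4 to 32.6 in NFIB mutant libraries. It was called lower with TMM (-0.54 and -0.53), but its direction turned with totals (0.03 and 0.04) and the call was lost with stable genes (-0.14 and -0.08). Its call in the NFIB mutant was also lost without NFIB mutant replicate 1 (-0.38) or replicate 3 (-0.47).

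Trim29 held peaks that moved in opposite directions. The peak 8089 bp into the gene (chromosome 9, 43318340 to 43319535), 22 bp from an annotated start of a shorter transcript, was at 0.797, 0.618 and 0.887 CPM in TKO, 12.5, 4.63 and 13.4 in CARM1 knockout and 1.11, 11.9 and 15 in NFIB mutant libraries. All 6 mutant libraries lay above TKO (3.73 ± 0.82, adjusted p = 0.00274, and 3.61 ± 0.82, adjusted p = 0.00295). Its lowest values within the mutants were in CARM1 knockout replicate 2 and NFIB mutant replicate 1, the replicate numbers with the least Trim29 RNA. The study describes both assays on the same tumor material, but the labels do not say that a number marks 1 animal in both. The intronic peak 21004 bp into the gene (chromosome 9, 43330995 to 43332710) was open in TKO, at 7.17, 9.70 and 39.6 CPM, and nearly closed in the mutants, at 1.78, 1.06 and 1.62 and at 1.02, 1.25 and 1.26 CPM. It fell by 3.66 and 4.0 on the log2 scale (SE 0.64 and 0.65, adjusted p = 0.000786 and 0.000483), with no overlap of the groups. Trim29 RNA was at 0.336 CPM or less in the TKO libraries, in which this peak was most open. The middle 300 bases of this peak (GRCm38.p6, plus strand) hold 2 TTGGCA, in capitals, the most of any member peak together with 1 at Ncoa3.
Trim29 chr9:43331703-43332002: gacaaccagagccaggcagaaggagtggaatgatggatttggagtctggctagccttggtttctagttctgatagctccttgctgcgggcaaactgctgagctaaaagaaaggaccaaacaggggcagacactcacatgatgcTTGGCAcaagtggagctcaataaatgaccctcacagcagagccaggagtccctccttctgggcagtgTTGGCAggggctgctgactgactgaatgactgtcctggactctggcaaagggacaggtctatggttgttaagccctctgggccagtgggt
The other 4 Trim29 peaks were weaker, at most 4.0 CPM in any library. The 2 upstream of the 8089 bp peak rose in the CARM1 knockout (1.67 and 2.79) and the nearer one also in the NFIB mutant (1.91), and the most distal peak fell in both (-2.84 and -3.71).

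**Figure D5:**
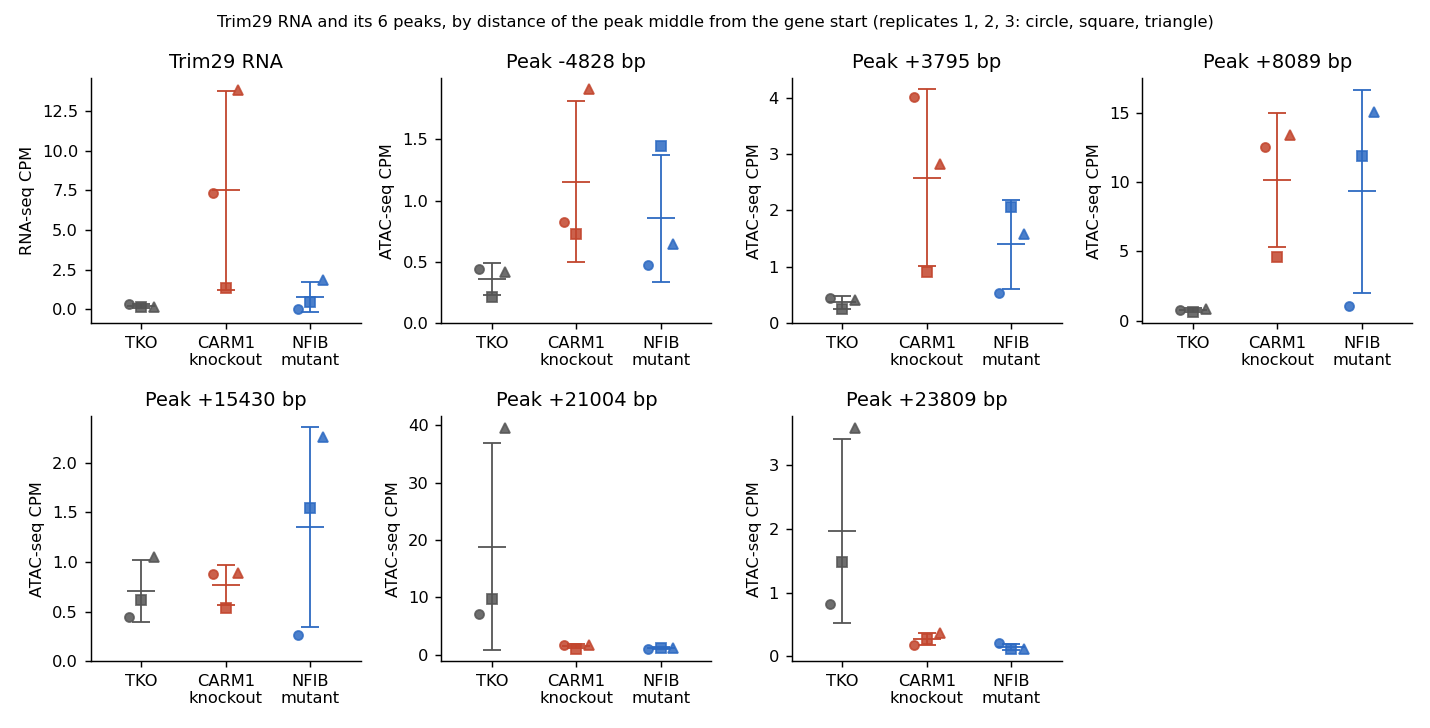
Trim29 RNA and the 6 Trim29 peaks in CPM (vertical axes, from 0) in the 3 libraries of each genotype, with mean ± SD; panel titles give the distance of the peak middle from the gene start. RNA is higher in the CARM1 knockout than in TKO. The peak at 8089 bp is higher in all 6 mutant libraries than in TKO, and the peak at 21004 bp is higher in TKO than in all 6 mutant libraries.

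Some other peaks were chosen after their values were seen. At Ncoa3, adjoining peaks near an internal transcript start (chromosome 2, 166067256 to 166067736 and 166067873 to 166068483) fell, with log2 fold changes of -3.91 and -3.98 in the CARM1 knockout and -5.05 and -3.58 in the NFIB mutant. They went from 1.31 to 6.0 CPM in TKO to at most 0.601 CPM in the mutants, while Ncoa3 RNA was not called. An intronic Ep300 peak (chromosome 15, 81605155 to 81605755) rose from 0.155 to 0.287 CPM to 1.33 to 2.17 and 2.06 to 2.12 CPM (2.86 and 3.17), and Ep300 RNA was not called either. A Pabpc1 peak inside the gene (chromosome 15, 36604890 to 36605223) was at 0.255, 0.0618 and 0 CPM in TKO and at 0.411 to 1.58 and 0.726 to 1.11 CPM in the mutants, a rise at a low level beside the higher RNA. At Kmt2d no peak was called, and the peak at its far end lies at the start of the neighbouring gene Prkag1.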

How the data were processed

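RNA-seq and ATAC-seq were available for 3 libraries of each of 3 genotypes, 18 libraries in all. Both tables were deposited by the authors as raw counts, without normalization. For RNA-seq Trim Galore was used for trimming, HISAT2 for alignment (mm10) and htseq-count for counting per Ensembl gene, with no strand setting given. For ATAC-seq they mapped reads with Bowtie2, removed duplicates with Picard, called peaks with MACS2 and counted reads on 1 merged peak set, with featureCounts 1.6.3 by the file header and with bedtools by the Methods. The submitters' processing notes also name Genrich and DESeq. The htseq-count table held 5 summary entries, which were left out of sizes and tests: reads outside genes were 10.0 to 12.2% of the total in TKO and 3.65 to 5.17% in the mutants.

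Counts were fitted in R 4.3.3 with edgeR 4.0.16 (TMM, filterByExpr, robust quasi-likelihood test, Benjamini-Hochberg adjustment over all genes or peaks), in 1 model of 9 libraries for each assay and with no term for the replicate number. Thresholds were those of the study. DESeq2 1.42.0 was an alternative, with other scalings, filters, thresholds, a replicate block and omission of each library. The stable-gene scaling used the 834 start-site peaks of 884 genes with absolute log2 fold changes under 0.25 and at least 32 CPM. On simulated counts, known changes were given to a small share of well-counted features at a fixed spread. The fits recovered nearly all of the larger changes and missed many of the smallest ones. The simulation covered neither changed features with few counts, such as Trim29, nor changes as widespread as those in these data. Tables and motif searches used Python 3.11.15 with pandas 2.3.3 and pysam 0.24.0 on GRCm38 with GENCODE and RefSeq annotation, and figures used matplotlib 3.10.9. Replicates were tumors of separate animals by the treatment protocol in the labels.

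All 9 genes were named in every comparison, Carm1 and Nfib as the targeted genes, and from each list up to 3 genes higher and 3 lower, those with the largest mean change among those called the same way in both mutants. For members called the same way in both, the 3 genes with the highest Pearson r were named. Peaks named were the one nearest each start and up to 2 others, the largest rise and the largest fall called in both mutants with at least 3 log2 CPM in the higher genotype. The members and lists, all written from general knowledge or the study's text, were chosen with earlier results of these data known.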

Additional observations from a re-analysis of the deposited data

How the results depend on the processing

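The number of members called stayed within 1.5 times the value given in most settings. In the CARM1 knockout against TKO it ranged from 1 to 5 genes over omissions of 1 library, 1 being without TKO replicate 2. In the NFIB mutant it ranged from 3 to 5 over omissions, and was 5 with no fold threshold, with median-of-ratios scaling, with totals alone and with at least 10 counts in every library. For peaks, at least 10 counts in every library left 10 called in the CARM1 knockout and 14 in the NFIB mutant. Between the mutants 0 of the 9 genes and 0 of the 45 peaks were called in every setting run.

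Some values turned in direction. For RNA, totals alone gave -0.20 and -0.046 for Ep300 (CARM1 knockout and NFIB mutant), -0.21 for Med12 in the CARM1 knockout and -0.34 for Ncoa3 in the NFIB mutant, where DESeq2 gave -0.011, median-of-ratios scaling -0.018 and the 10-count minimum -0.067. Over omissions of 1 library the CARM1 knockout values ran from -0.048 to 0.18 for Ep300, -0.0060 to 0.16 for Med12 and -0.39 to 0.10 for Ncoa3, and the NFIB mutant values from -0.16 to 0.32 for Ncoa3. Testing genes with no filter moved the median of all genes by -0.13 and -0.17. For start-site peaks, totals alone gave 0.33 and 0.39 at Ep300, 0.22 and 0.33 at Crebbp, 0.40 and 0.44 at Kmt2d, 0.18 and 0.19 at Tdrd3, 0.021 at Smarcc1 in the CARM1 knockout and 0.073 at Ncoa3 in the NFIB mutant, and 0.031 and 0.037 at the Smarcc1 peak 14087 bp from the gene start. Scaling by stable genes gave 0.15 and 0.30 at Ep300, 0.033 and 0.23 at Crebbp, 0.22 and 0.36 at Kmt2d and 0.064 at Tdrd3 in the NFIB mutant, and the 10-count minimum gave 0.048 at Kmt2d in the NFIB mutant. The scalings differ by construction in where they set 0.

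Between genotypes, deviations of same-numbered libraries from their group means correlated between -0.30 and 0.12 for RNA-seq and -0.14 and 0.12 for ATAC-seq. Libraries with different numbers gave -0.14 to 0.19 and -0.11 to 0.12. With 3 libraries per group, whose deviations sum to 0, these values cannot show whether a number marks a shared litter, batch or day. RNA-seq and ATAC-seq libraries were not compared in this way. With a replicate block, 4 and 3 genes and 26 and 26 peaks were called against TKO, and 0 genes and 0 peaks between the mutants.

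The 3 libraries of each genotype limit precision, and Trim29, with 0 to 29 counts in TKO and NFIB mutant libraries, is limited by depth.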
